A study of Mus musculus with 4 samples.

Results

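The genes described here are 42 that build and regulate the actin cytoskeleton and the sites where it is anchored to the extracellular matrix. They were chosen by gene symbol from a list of focal adhesion, stress fibre and serum response factor (SRF) target genes. The rule uses no measured value, but the list was drawn up with earlier results of these data known. All 42 symbols were found among the 39179 genes of the count files. Expression was measured by RNA sequencing in B16F1, an established mouse melanoma cell line. The 4 libraries comprised 2 of parental cells (replicates 1 and 3), kept on conventional rigid dishes, and 2 of tumor repopulating cells (TRCs, also replicates 1 and 3). TRCs were the cells that grew from single cells into spheroids inside a soft 3-dimensional fibrin gel of 90 Pa and were taken out on day 5. No drug or genetic change separated the groups.

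Actin filaments are bundled by crosslinkers, contracted by non-muscle myosin II and coupled through talin, vinculin and kindlin to integrins, the receptors that hold the matrix. SRF works with the myocardin-related transcription factors (MRTFs), which are held in the cytoplasm by unpolymerized actin and enter the nucleus once that actin is built into filaments. Many genes of the filament and adhesion machinery carry SRF binding sites, and cells on stiff surfaces typically form larger adhesions and more stress fibres than cells in soft gels.

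The groups differed at once in the surface, its stiffness, the 3-dimensional surround, the growth as spheroids and the selection of the cells that grew, and these cannot be told apart here. The labels do not say that the replicates came from separate cultures, so each p-value measures the spread between these libraries, which may be technical. In bulk RNA, fewer cells that use a gene and less of its RNA per cell cannot be told apart either. Counts assigned to genes ranged from 35948295 to 43511554 per library. Alignments at more than 1 place made up 15.2% and 17.1% in the parental libraries, 18.3% in TRC replicate 1 and 25.2% in TRC replicate 3, the highest of the 4, and the part of this in the results below was not tested. The summed level of 8 melanocyte markers was 25100 and 20400 CPM (counts relative to the size of the library) in the parental libraries and 29700 and 31700 CPM in the TRC libraries. Among these markers only Dct, a pigment enzyme, passed the test, with a log2 fold change of 1.08 (adjusted p = 0.000307). A list of 10 smooth muscle and fibroblast markers, cells in which many of the 42 genes are abundant, summed to 11.6 and 3.94 CPM in parental and 8.73 and 6.18 CPM in TRC libraries, and none of the 3 that could be tested was called.

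Of the 42 genes, 36 had at least 1 CPM in at least 2 libraries and were tested. In the edgeR exact test, 3 rose in TRCs (Src, Pxn and Csrp1) and 5 fell (Flna, Actn1, Zyx, Tagln2 and Tpm1) at a false discovery rate (FDR) under 0.05, counted over all 11483 genes tested. The 8 called genes were 22.2% of the 36, beside 15.9% of all genes tested. Those that rose were 8.33% beside 8.81% of all genes, and those that fell were 13.9% beside 7.05%. The median log2 fold change (TRC over parental) of the 36 was -0.09, beside 0.003 over all genes tested, and single genes ran from -3.09 for Tagln2 to 0.67 for Pxn. For 16 genes the fold change was above 0 and for 20 below.

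The remaining 28 tested genes did not pass, with log2 fold changes between -0.78 and 0.58. Both TRC libraries lay above both parental libraries for 9 of the 36 (25%), beside 30.2% of all genes tested. Both lay below for 13 (36.1%), beside 30.4%, and for 14 the groups overlapped. The 42 genes together took 1.13% and 1.26% of all gene counts in the parental libraries and 1.02% and 1.06% in the TRC libraries. Both parental shares lay above both TRC shares, but the nearest of them were closer to each other than the parental replicates were.

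**Figure D1:**
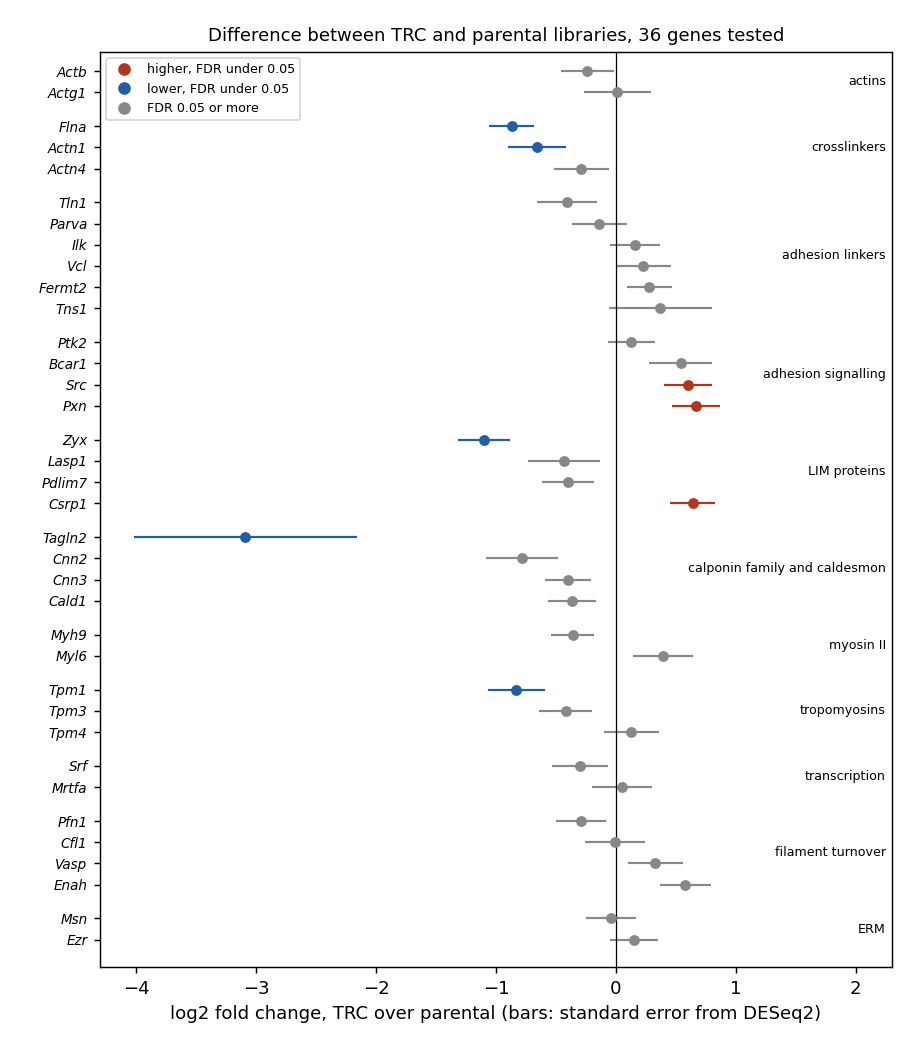
Log2 fold change (TRC over parental, horizontal axis) of the 36 tested genes, grouped by role, with the standard error from DESeq2 as bars. Red marks the 3 genes that rose, blue the 5 that fell and grey the 28 that did not pass, and Tagln2 stands farthest from 0 at -3.09.

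The calls did not hold equally when single libraries were left out. Zyx and Tagln2 were called in every one of the 4 fits without a library. Without parental replicate 3, or without TRC replicate 3, only these 2 of the 8 genes were still called. Without TRC replicate 1, Flna was called besides them, and without parental replicate 1 all 5 genes that fell were called. Src, Pxn and Csrp1 were called in none of the 4 fits. All 8 genes kept the sign of their fold change in each. This adds no support, because their groups did not overlap and leaving out a library could hardly reverse the sign.

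SRF itself and its cofactor MRTF-A were measured first. Srf stood at 53.6 and 47.2 CPM in parental replicates 1 and 3 and at 37.0 and 44.8 CPM in TRC replicates 1 and 3, values here and below being scaled by the trimmed mean of M-values (TMM). Both TRC libraries were lower, but the log2 fold change of -0.30 ± 0.23 (standard error, SE) did not pass (adjusted p = 0.43). Mrtfa stood at 33.2 and 32.4 CPM in parental and 29.4 and 38.8 CPM in TRC libraries, so that the TRC libraries lay on either side of the parental ones (log2 fold change 0.05 ± 0.25, adjusted p = 0.922). Per kilobase of exon, Srf averaged 17.4 and 14.1 FPKM (CPM per kilobase of all exons) in parental cells and TRCs, and Mrtfa 5.37 and 5.58 FPKM.

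SRF binds the CArG box, a motif of 10 bases made of 2 C, then 6 A or T, then 2 G, which reads as the same pattern on both strands. It was searched in RefSeq promoter windows of build GRCm38.p6 that run from 250 bases before to 50 bases after each gene's start. Windows were found for 37 of the 42 genes and not for Actb, Tagln, Pxn, Ptk2 and Parva. A CArG box stood in the windows of 7 of the 37 genes, which is 7 of their 44 promoters or 15.9%, beside 1.63% of all 32851 promoters and 1.14% of the promoters of genes tested. The list was itself assembled from SRF targets. The 7 are printed in the direction of transcription with the CArG box in capitals, because they show which of the genes carry the motif the list is named for.

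Actg1: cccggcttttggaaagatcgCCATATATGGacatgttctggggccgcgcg
Cnn2: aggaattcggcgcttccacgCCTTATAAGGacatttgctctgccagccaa
Fermt2: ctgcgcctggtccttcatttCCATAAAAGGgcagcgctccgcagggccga
Myl6: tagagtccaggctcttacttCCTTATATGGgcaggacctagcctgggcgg
Myl9: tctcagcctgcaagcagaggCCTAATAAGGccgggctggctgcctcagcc
Srf: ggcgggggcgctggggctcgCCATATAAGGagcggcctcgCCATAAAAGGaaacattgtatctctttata
Vcl: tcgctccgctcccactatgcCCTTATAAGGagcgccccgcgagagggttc

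The windows lie on the minus strand at chr11:120348556-120348605 (Actg1), chr14:45530240-45530289 (Fermt2), chr10:128493030-128493079 (Myl6) and chr17:46556195-46556264 (Srf). Those on the plus strand are at chr10:79988524-79988573 (Cnn2), chr2:156775283-156775332 (Myl9) and chr14:20929151-20929200 (Vcl). The box began 50 bases before the start in Myl6, 56 in Cnn2, 90 in Actg1, 161 in Myl9, 204 in Fermt2 and 227 in Vcl. Srf had 2 boxes, 82 and 62 bases before its own start. Of these 7 genes 6 were tested and 0 were called, with log2 fold changes from -0.78 for Cnn2 to 0.39 for Myl6. As 15.9% of all genes tested were called, a count of 0 among 6 says nothing about genes with the motif. Of the 8 called genes 7 had a promoter entry, and none of these held the motif in this window, which says only that these letters do not stand there.

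The cytoplasmic actins did not pass the test, and smooth muscle actin was not detected. Actb, cytoplasmic beta-actin, was the most abundant of the 42 genes per exon length (668 FPKM in parental cells and 567 FPKM in TRCs on average). It stood at 1580 and 2000 CPM in parental and 1350 and 1680 CPM in TRC libraries (log2 fold change -0.24 ± 0.22, adjusted p = 0.573). Replicate 3 was the higher one in each group and the groups overlapped. Actg1, cytoplasmic gamma-actin, stood at 424 and 383 CPM in parental and 296 and 514 CPM in TRC libraries, so that the TRC libraries held both the lowest and the highest value. Its log2 fold change was 0.01 ± 0.28 (adjusted p = 0.993), and 29.8% of its stretches of read length also stood in transcripts of 6 pseudogenes, which leaves its level uncertain. Acta2, the smooth muscle actin of contractile fibroblasts and a classic SRF target, had 0 counts in every library. A count of 0 allows up to 0.0675 to 0.085 CPM at these depths (3 counts, counting error only), and no stretch of read length of Acta2 was shared with another gene. Per exon length Actb held 78.8% and 83.8% of the actin RNA in the parental libraries and 81.9% and 76.5% in the TRC libraries, so the beta to gamma composition overlapped as well.

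**Figure D2:**
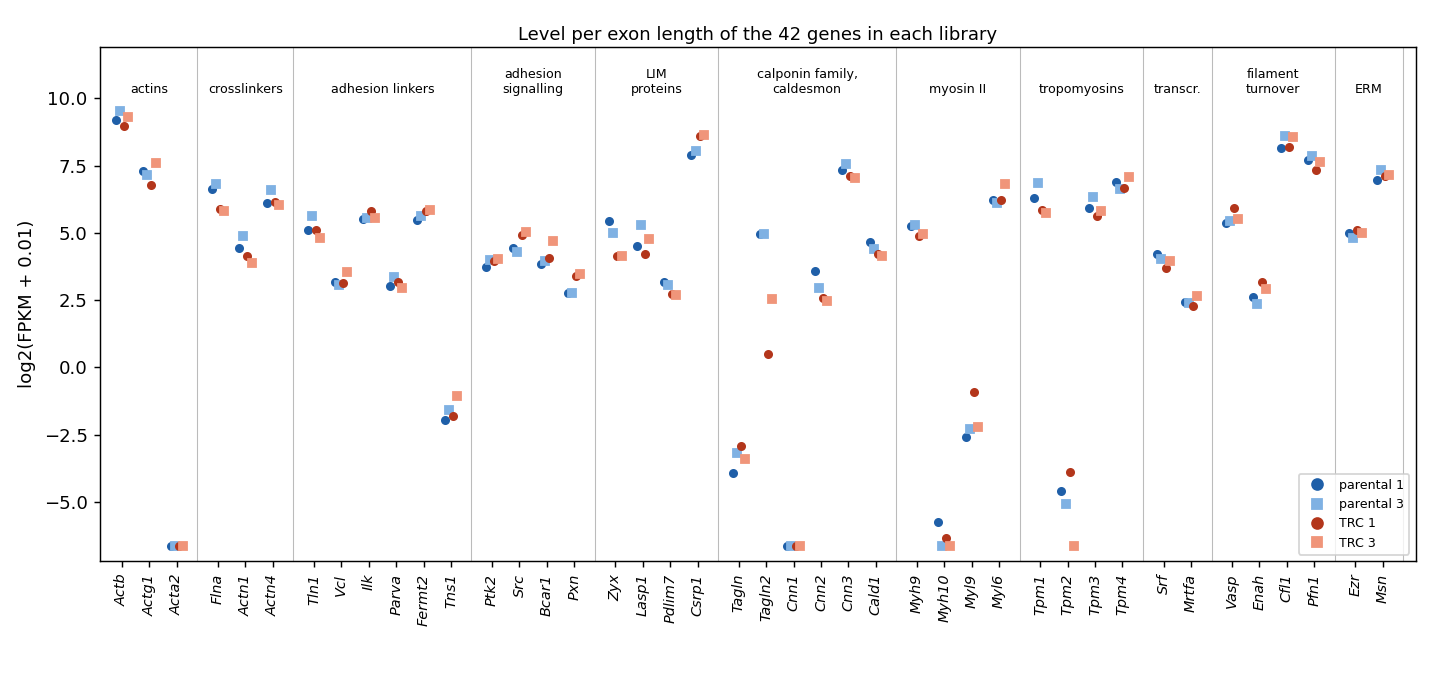
Level of each of the 42 genes in each library as log2 of FPKM plus 0.01, grouped by role, with circles for replicate 1 and squares for replicate 3, blue for parental and red for TRC. Acta2 and Cnn1 lie on the floor with 0 counts in all 4 libraries, Actb stands highest, and Tagln2 has the widest gap between the groups.

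Of the 3 crosslinkers that tie actin filaments into networks and bundles, 2 fell (7.05% of all genes tested did). These are too few genes to describe crosslinkers as a group. Flna, which encodes filamin A and couples crossed filaments to integrins (chromosome X, 74223461 to 74249820, minus strand), stood at 940 and 1050 CPM in parental replicates 1 and 3. In TRC replicates 1 and 3 it stood at 561 and 531 CPM. Both TRC libraries lay far below both parental ones, with group means of 995 ± 78.0 and 546 ± 21.4 CPM (SD, n = 2 each). That is 1.82-fold lower in TRCs, a log2 fold change of -0.87 ± 0.19 (edgeR exact test, adjusted p = 0.00259). The call was lost without parental replicate 3 (-0.78, adjusted p = 0.0542) and without TRC replicate 3 (-0.83, adjusted p = 0.075).

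Actn1, the alpha-actinin found in focal adhesions and stress fibres of non-muscle cells (chromosome 12, 80167547 to 80260371, minus strand), stood at 121 and 165 CPM in parental libraries. In TRC libraries it stood at 98.3 and 82.3 CPM, below both parental values, though the gap to parental replicate 1 was smaller than the gap between the parental replicates. The log2 fold change was -0.66 ± 0.24 (adjusted p = 0.0467). It was not called without parental replicate 3 (-0.42, adjusted p = 0.417), without TRC replicate 1 (-0.81, adjusted p = 0.136) or without TRC replicate 3 (-0.54, adjusted p = 0.37). Its paralogue Actn4 was more abundant, at 422 and 598 CPM in parental and 435 and 400 CPM in TRC libraries, and overlapped between the groups (-0.29 ± 0.23, adjusted p = 0.479). Actn1 made up 24.0% and 23.4% of the summed alpha-actinin FPKM in parental and 20% and 18.5% in TRC libraries. The share was lower in both TRC libraries.

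Tropomyosins wrap along filaments and set which motors and crosslinkers reach them. Tpm1 fell, whereas Tpm3 and Tpm4 did not pass and Tpm2 was barely counted (4, 2, 7 and 0 counts, here and below in the order parental 1, parental 3, TRC 1, TRC 3). Tpm1 (chromosome 9, 67022590 to 67049406, minus strand), whose long forms line stress fibres, stood at 513 and 759 CPM in parental and 370 and 346 CPM in TRC libraries. The TRC libraries lay close together below both parental ones, with means of 636 ± 174 and 358 ± 17.4 CPM (SD, n = 2 each) and a log2 fold change of -0.83 ± 0.24 (edgeR exact test, adjusted p = 0.0125). The call was lost without parental replicate 3, the highest library (-0.52, adjusted p = 0.301), without TRC replicate 1 (-0.89, adjusted p = 0.0963) and without TRC replicate 3 (-0.79, adjusted p = 0.149). Tpm3 stood at 374 and 493 CPM in parental and 302 and 343 CPM in TRC libraries, below them but not called (-0.42 ± 0.22, adjusted p = 0.244), and shared 15.6% of its stretches of read length with the retrogene Tpm3-rs7. Tpm4 stood at 261, 219, 224 and 300 CPM and overlapped (0.13 ± 0.23, adjusted p = 0.786).

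The share of Tpm1 in the summed FPKM of the tropomyosins was 30.6% and 39.4% in the parental libraries and 27.4% and 21.7% in the TRC libraries. Tpm4 held 45.7% and 33.4% in the parental libraries and 48.8% and 55.4% in the TRC libraries, while Tpm3 held 23.7%, 27.2%, 23.8% and 22.9%. The groups did not overlap for Tpm1 or Tpm4 and did for Tpm3, but for Tpm1 and Tpm4 the nearest parental and TRC values were closer to each other than the parental replicates were. No test was run on these shares.

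**Figure D3:**
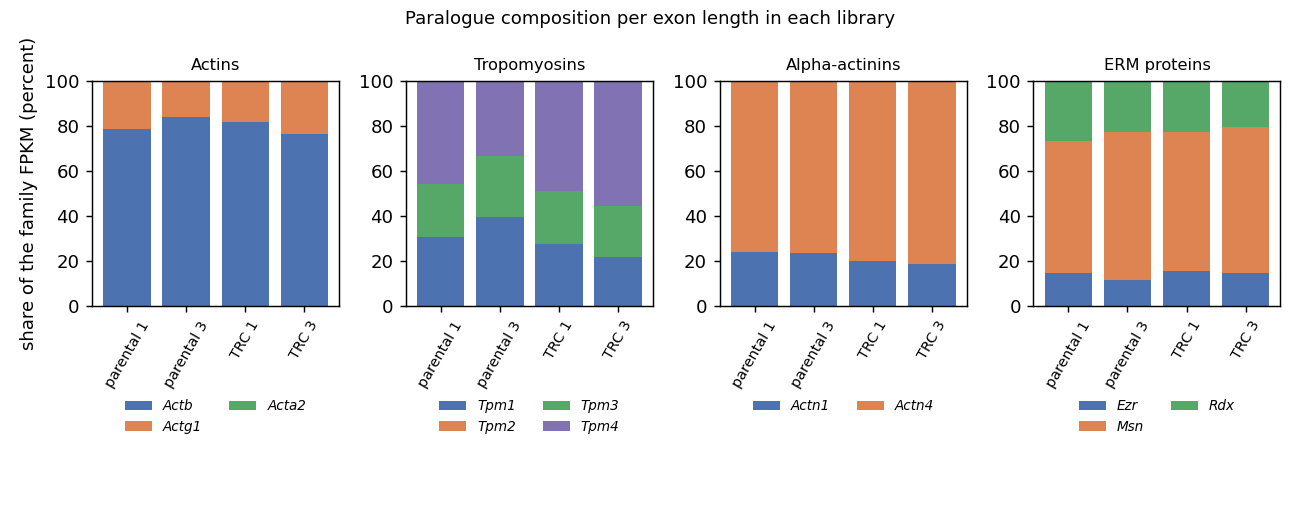
Percent of each family's summed FPKM held by each paralogue (stacked bars) in the 4 libraries, for actins, tropomyosins, alpha-actinins and the ERM proteins ezrin, radixin and moesin. Tpm1 holds 30.6% and 39.4% in the parental libraries and 27.4% and 21.7% in the TRC libraries, while the beta-actin share overlaps between the groups.

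The calponin family and caldesmon bind along actin filaments. Of these 6 genes 4 were tested, all 4 were lower in both TRC libraries than in both parental libraries (30.4% of all genes tested were), and 1 fell by the test (7.05% of all genes tested). With 4 genes this cannot describe the family as a group. Tagln2 encodes transgelin-2, a family member also found outside smooth muscle (chromosome 1, 172500047 to 172507380, plus strand). It stood at 64.2 CPM in each parental library and at 2.89 and 12.2 CPM in TRC replicates 1 and 3. Its counts were 2856 and 2266 in the parental and 120 and 507 in the TRC libraries. The parental libraries were alike, whereas TRC replicate 3 held several times the level of TRC replicate 1, and both were far below parental. The log2 fold change was -3.09 ± 0.93, or 8.52-fold lower (edgeR exact test, adjusted p = 6.27e-08), the largest of the 42 genes. Other tests gave much weaker evidence. The adjusted p was 0.00949 in DESeq2, 0.0206 in the quasi-likelihood test and 0.0264 in that test with replicate as a block. The size of the fold change depended on the TRC library, being -4.48 without TRC replicate 3 and -2.41 without TRC replicate 1. No stretch of read length of Tagln2 was shared with another gene.

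Cnn2, calponin 2, fell short of the threshold at 29.4 and 19.1 CPM in parental and 14.6 and 13.7 CPM in TRC libraries (-0.78 ± 0.30, adjusted p = 0.0854). Without parental replicate 3 it would have been called (-1.06, adjusted p = 0.0303). Cnn3, the most abundant calponin, stood at 496 and 574 CPM in parental and 415 and 397 CPM in TRC libraries (-0.40 ± 0.19, adjusted p = 0.25). Caldesmon (Cald1) stood at 308, 256, 225 and 211 CPM (-0.37 ± 0.20, adjusted p = 0.294). The smooth muscle forms had few or no counts. Cnn1 had 0 counts in every library, and Tagln, a widely used SRF reporter gene, had 5, 7, 10 and 7 counts. Of the stretches of read length of Tagln, 48.1% overlap genes on the other strand. Even these few counts are uncertain if the counting ignored strand, which is not known. Summed per exon length, Tagln and Tagln2 together came to 30.9 FPKM in each parental library and to 1.51 and 5.94 FPKM in the TRC libraries.

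Of the 4 chains of non-muscle myosin II among the 42 genes, the motor that tightens stress fibres, 2 were tested. Of these 0 were called (15.9% of all genes tested were), which says nothing about so small a group. Myh9, the heavy chain of myosin IIA, stood at 490 and 513 CPM in parental and 383 and 401 CPM in TRC libraries. Both TRC libraries were lower, but the difference did not pass (-0.36 ± 0.18, adjusted p = 0.301). Myl6, the essential light chain, stood at 240, 218, 240 and 358 CPM (0.39 ± 0.25, adjusted p = 0.323), and TRC replicate 3 stood above the other libraries, which were close together. Myh10, the heavy chain of myosin IIB, had 4, 0, 1 and 0 counts, and Myl9, a regulatory light chain driven by SRF, had 8, 8, 25 and 10 counts. Both were under the filter. The regulatory light chains that these cells did express were Myl12a, at 306, 321, 190 and 286 CPM (adjusted p = 0.304), and Myl12b, at 129, 140, 132 and 178 CPM (adjusted p = 0.637). These paralogues are outside the 42 and were singled out after their values were seen.

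The 6 proteins that link integrins to actin, or sit directly beside that link, gave 0 calls, beside 15.9% of all genes tested. At that share a count of 0 among 6 says nothing about linkers as a group. Their median log2 fold change was 0.20. Talin 1 (Tln1), which activates integrins and binds actin, stood at 340 and 485 CPM in parental and 341 and 278 CPM in TRC libraries (-0.41 ± 0.25, adjusted p = 0.286). Vinculin (Vcl), which reinforces talin under tension and is one of the genes with a CArG box, stood at 74.3, 68.8, 72.4 and 95 CPM (0.23 ± 0.23, adjusted p = 0.574). Of its stretches of read length 24.6% overlap a gene on the other strand, which matters only if the counting ignored strand. For Tln1 and Vcl the groups overlapped. Fermt2, kindlin-2, the partner of talin in integrin activation, stood at 229 and 256 CPM in parental and 291 and 298 CPM in TRC libraries. It was the one linker whose groups did not overlap, and it was not called (0.28 ± 0.19, adjusted p = 0.438).

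Integrin-linked kinase (Ilk) and its partner alpha-parvin (Parva) form 1 complex with PINCH, and neither differed beyond the spread. Ilk stood at 124, 129, 155 and 127 CPM (0.16 ± 0.21, adjusted p = 0.712). Of its stretches of read length 47.6% overlap genes on the other strand, which again matters only if the counting ignored strand. Parva stood at 82.6, 103, 90.7 and 78.0 CPM (-0.14 ± 0.23, adjusted p = 0.752). Tns1, tensin 1 of the more mature adhesions along the cell body, was the least abundant of the 36 tested genes per exon length, at 0.289 and 0.374 FPKM in parental cells and TRCs (0.37 ± 0.43, adjusted p = 0.643).

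The 4 adhesion signalling genes all had fold changes above 0 (median log2 fold change 0.57). By the test 2 of them rose (8.81% of all genes tested did), too few genes to describe adhesion signalling as a group. Pxn encodes paxillin, the scaffold on which kinases assemble at an adhesion (chromosome 5, 115506676 to 115555987, plus strand). It stood at 56.3 and 55.5 CPM in parental and 87.2 and 91.2 CPM in TRC libraries. The replicates of each group were close together, with means of 55.9 ± 0.537 and 89.2 ± 2.87 CPM (SD, n = 2 each) and a log2 fold change of 0.67 ± 0.20 (edgeR exact test, adjusted p = 0.0185). With 1 library fewer the fold change was between 0.63 and 0.69, but the adjusted p was 0.0579 without parental replicate 1, 0.117 without parental replicate 3, 0.135 without TRC replicate 1 and 0.18 without TRC replicate 3.

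Src, the tyrosine kinase that phosphorylates paxillin and p130Cas at adhesions (chromosome 2, 157418444 to 157471862, plus strand), stood at 95.9 and 85.0 CPM in parental and 132 and 142 CPM in TRC libraries. Both TRC libraries were higher, at 137 ± 6.58 against 90.4 ± 7.67 CPM (SD, n = 2 each), and the call was just inside the threshold (0.60 ± 0.20, adjusted p = 0.0494). The adjusted p was 0.0668 with library sizes in place of TMM, and 0.0683 without parental replicate 1, 0.31 without parental replicate 3, 0.2 without TRC replicate 1 and 0.286 without TRC replicate 3. Bcar1, which encodes p130Cas, a Src substrate that is stretched by force, stood at 64.7 and 70.0 CPM in parental and 76.2 and 119 CPM in TRC libraries. The groups did not overlap, but TRC replicate 3 was far above TRC replicate 1, and the difference did not pass (0.54 ± 0.26, adjusted p = 0.144). Focal adhesion kinase (Ptk2) stood at 157, 187, 183 and 195 CPM, with overlapping groups (0.13 ± 0.20, adjusted p = 0.756).

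The 4 genes grouped here as LIM domain proteins went different ways. Paxillin (Pxn), which also has LIM domains, was counted above with adhesion signalling. By the test 1 was lower and 1 higher (7.05% and 8.81% of all genes tested were). Zyx encodes zyxin, which repairs stress fibres under strain (chromosome 6, 42349630 to 42360213, plus strand). It stood at 232 and 173 CPM in parental and 94.1 and 94.7 CPM in TRC libraries. The TRC libraries were nearly equal, below both parental ones, with means of 203 ± 41.6 and 94.4 ± 0.434 CPM (SD, n = 2 each). Zyx was 2.15-fold lower (log2 fold change -1.10 ± 0.22, edgeR exact test, adjusted p = 0.00017), and leaving out single libraries gave -1.30 to -0.88 with the call kept each time.

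Csrp1, the cysteine and glycine-rich protein that binds alpha-actinin and zyxin along filaments (chromosome 1, 135720061 to 135752232, plus strand), stood at 466 and 523 CPM in parental and 760 and 785 CPM in TRC libraries. Both TRC libraries were higher, with means of 494 ± 40.1 and 773 ± 17.6 CPM (SD, n = 2 each) and a log2 fold change of 0.64 ± 0.19 (edgeR exact test, adjusted p = 0.0339). The adjusted p was 0.183 without parental replicate 1, 0.115 without parental replicate 3, 0.168 without TRC replicate 1 and 0.191 without TRC replicate 3. At 395 FPKM on average in TRCs, against 253 FPKM in parental cells, Csrp1 was among the most abundant of the 42 genes. Lasp1, which binds actin and zyxin, stood at 149, 255, 122 and 177 CPM (-0.43 ± 0.30, adjusted p = 0.336), with replicate 3 higher in each group and the groups overlapping. Pdlim7, a stress fibre protein that also binds tropomyosin, stood at 43.7 and 40.4 CPM in parental and 32.1 and 31.6 CPM in TRC libraries, lower in both but not called (-0.40 ± 0.22, adjusted p = 0.268).

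**Figure D4:**
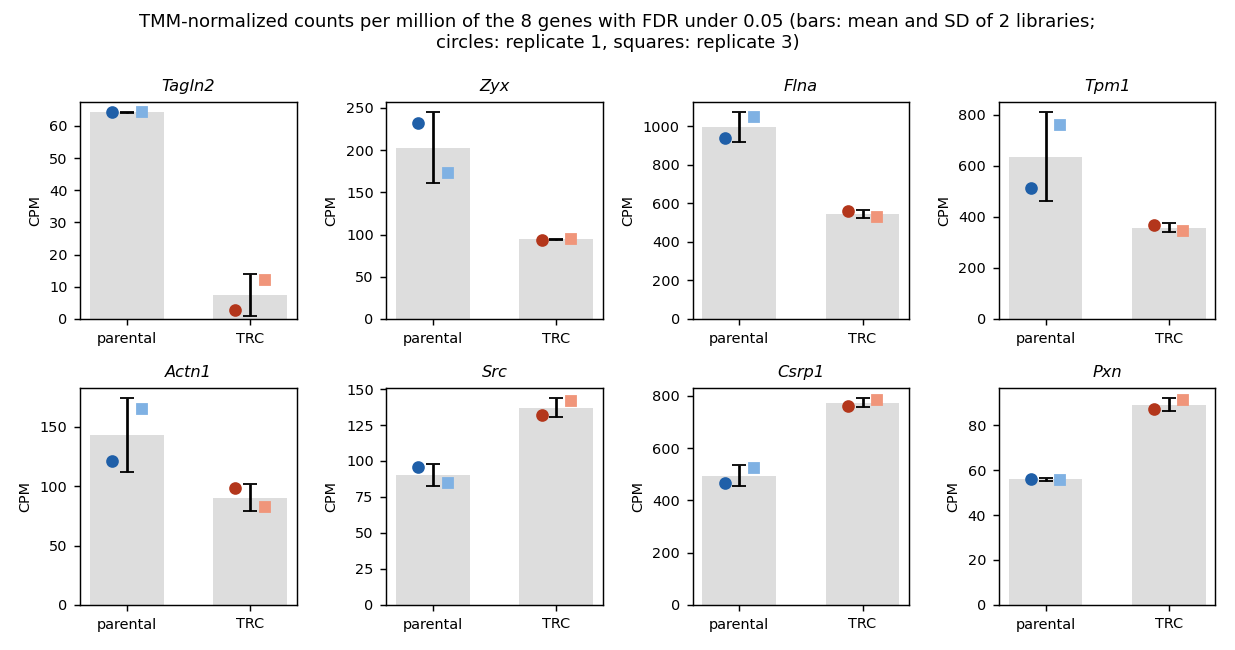
CPM after TMM scaling of the 8 called genes in parental and TRC libraries, with bars at the mean, error bars of 1 SD (n = 2) and each library as a circle (replicate 1) or square (replicate 3). No gene overlaps between the groups. The fold difference is largest for Tagln2, at 64.2 CPM in each parental library and 2.89 and 12.2 CPM in the TRC libraries.

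Of the 4 genes of filament turnover 0 were called (15.9% of all genes tested were), which says nothing about so small a group. Enah (Mena) and Vasp, which extend filaments at their growing ends and bind zyxin, were both above parental in both TRC libraries. Enah stood at 131, 109, 195 and 164 CPM (0.58 ± 0.21, adjusted p = 0.0743) and was called only when DESeq2 was used in place of the exact test (adjusted p = 0.0395). Vasp stood at 108, 114, 160 and 119 CPM (0.33 ± 0.23, adjusted p = 0.372). Cofilin (Cfl1), which severs filaments, was the second most abundant gene in parental cells per exon length (338 FPKM) and overlapped between groups at 806, 1120, 826 and 1090 CPM (-0.01 ± 0.25, adjusted p = 0.988). Profilin 1 (Pfn1), which feeds actin monomers to growing ends, stood at 500 and 561 CPM in parental and 385 and 483 CPM in TRC libraries (-0.29 ± 0.21, adjusted p = 0.452).

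Ezrin and moesin tether actin to the membrane rather than to the matrix. Moesin (Msn) stood at 795, 1030, 869 and 902 CPM (-0.04 ± 0.21, adjusted p = 0.938) and ezrin (Ezr) at 105, 92.5, 114 and 105 CPM (0.15 ± 0.20, adjusted p = 0.714). Neither was called. Moesin was the main form per exon length, with 58.5%, 65.8%, 61.8% and 64.9% of the family, and radixin (Rdx), which is not among the 42, held 26.7%, 22.8%, 22.6% and 20.5%.

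Other genes of the same pathways were read from 6 further lists, 158 genes in all, of which 126 were tested. In these, 10 rose and 7 fell, 13.5% beside the 15.9% of all genes tested, and the median log2 fold change was 0. The genes of 5 of these lists are described. Of the 29 tested genes of the focal adhesion plaque, 0 rose (8.81% of all genes tested did) and 4 fell in the exact test (13.8%, beside 7.05%), with a median of 0. Tln2, the second talin, stood at 110, 145, 55.7 and 63.4 CPM (-1.10, adjusted p = 0.000155). The LIM proteins Pdlim1 (-0.99, adjusted p = 0.00137), Trip6 (-0.69, adjusted p = 0.0194) and Lims1, the PINCH of the Ilk complex (-0.67, adjusted p = 0.0253), fell as well. Tln2 was called without any one library, whereas Lims1 was called in none of these 4 fits (adjusted p between 0.0564 and 0.283). Trip6 was lost without parental replicate 3 (0.116), TRC replicate 1 (0.26) or TRC replicate 3 (0.0924), and Pdlim1 without TRC replicate 1 (0.0632), all as adjusted p.

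Of 16 tested further targets and cofactors of SRF, 2 rose (12.5%, beside 8.81% of all genes tested) and 1 fell (6.25%, beside 7.05%), shares near those of all genes, with a median log2 fold change of 0.23. Filip1l, a filamin-interacting protein, fell from 52.6 and 33.6 CPM to 11.8 and 17.5 CPM (-1.56, adjusted p = 3.27e-05). Mylk, the kinase of the myosin light chain, rose from 22.1 and 13.7 CPM to 32.2 and 40.1 CPM (1.01, adjusted p = 0.00987). Phactr1, an actin-binding regulator of phosphatase 1, rose from 42.9 and 47.7 CPM to 75.8 and 89.4 CPM (0.87, adjusted p = 0.00225). Filip1l was called without any one library. Mylk was not called without parental replicate 3 (adjusted p = 0.205) or TRC replicate 3 (0.223), nor Phactr1 without TRC replicate 3 (0.109).

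Immediate early genes are the other branch of SRF control, in which growth factor signals act through ternary complex factors rather than actin. Of the 8 tested, 3 rose (37.5%, beside 8.81% of all genes tested) and 0 fell, and the median log2 fold change was 0.79. The other 5 were not called, and the fold change was above 0 for 6 of the 8 and below 0 for 2. So few genes do not describe immediate early genes as a group. Ier3 stood at 37.4 and 29.5 CPM in parental and 105 and 291 CPM in TRC libraries (2.56, adjusted p = 1.31e-08). Fos stood at 1.15, 1.62, 10.4 and 7.07 CPM (2.66, adjusted p = 1.4e-06) and Fosb at 0.27, 0.34, 11.5 and 1.44 CPM (4.40, adjusted p = 1.42e-05). All 3 were higher in both TRC libraries and were called without any one library. Fosb was not tested when 1 CPM was required in 3 libraries, and Ier3 and Fosb differed several times over between the TRC replicates.

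Of 40 tested genes of actin assembly, 3 rose (7.5%, beside 8.81% of all genes tested) and 0 fell (7.05% of all genes did), with a median log2 fold change of -0.01. Gelsolin (Gsn), which severs and caps filaments, stood at 91.2, 44.8, 236 and 215 CPM (1.73, adjusted p = 2.26e-06). The second profilin, Pfn2, stood at 17, 19.4, 39.0 and 55.6 CPM (1.38, adjusted p = 2.06e-05), while Pfn1 had not passed. Both were called without any one library. Ssh3, a phosphatase that activates cofilin, stood at 2.23, 1.05, 7.84 and 2.45 CPM (1.64, adjusted p = 0.0441), mostly through TRC replicate 1, and was not called without it (adjusted p = 0.718) or without parental replicate 3 (0.388). Among 6 tested paralogues of the 42 genes, Myh14, the heavy chain of myosin IIC, rose (4.14, 1.98, 13.2 and 4.78 CPM, log2 fold change 1.55, adjusted p = 0.0397), but not without TRC replicate 1 (adjusted p = 0.651) or parental replicate 3 (0.366). Per exon length it reached 5.78% of the summed myosin II heavy chains in TRC replicate 1 and 2.08% or less in the other libraries.

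**Figure D5:**
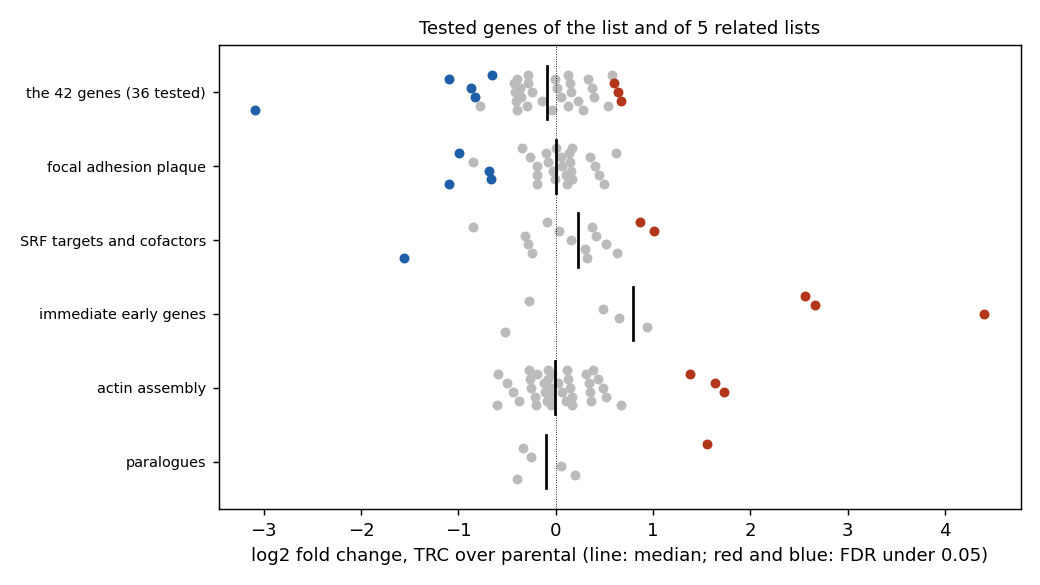
Log2 fold change (TRC over parental, horizontal axis) of each tested gene among the 42 and in 5 of the related lists, with red for genes that rose, blue for genes that fell, grey for the rest and a line at each median. The medians lie at -0.09 for the 42 genes, 0 for the focal adhesion plaque and 0.79 for the immediate early genes, and Tagln2 is the point farthest to the left in the top row.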

How the data were processed

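Polyadenylated RNA of 2 parental and 2 TRC libraries was sequenced as stranded single-end reads. Raw, unnormalized counts were deposited, 1 value for each Ensembl gene and library. Per the submitters' processing notes, the authors used CASAVA 1.8.2, Trimmomatic 0.35, TopHat2 2.1.0, Bowtie2 2.2.6, SAMtools 1.3 and HTSeq on GRCm38. The mode and strand setting of the counting are not given in the sources used here, and reads at several places could be lost from genes with copies.

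Genes with at least 1 CPM in at least 2 libraries were kept. The study's own test was used, the exact test of edgeR 4.0.16 (R 4.3.3) with common and tagwise dispersions, TMM and a prior count of 0.125. P-values were adjusted by Benjamini-Hochberg over all 11483 genes tested, with FDR under 0.05 as a call. Standard errors came from DESeq2 1.42.0. FPKM was CPM per kilobase of the union of exons in GENCODE M21, which held 37607 of the 39179 identifiers. Depth gave 3 counts a value of 0.0675 to 0.085 CPM, and such limits cover counting error only. Stretches of read length were compared between transcripts to find shared sequence. Samples were grouped by their labels. The labels do not say whether libraries with the same replicate number belong together, and they were treated as unpaired. The correlation of same-numbered deviations was 0.027 over all genes tested, which cannot show how the libraries were handled. The script was tested on simulated data.

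The 42 genes and the further lists were chosen with earlier results of these data known. All 42 are accounted for, and of each further list at most 4 called genes are named, those of lowest FDR whose group with more RNA averaged 5 CPM or more. Alternatives were other filters and normalizations, the quasi-likelihood test without and with replicate as a block, DESeq2, a ratio of mean CPM and each library left out. Endothelial and epithelial markers summed to at most 0.17 and 1.8 CPM, and Cdh5, Kdr, Krt5 and Krt14 had 0 counts. The genes of 1 further list and of 1 marker list are not reported here. Protein measurements and imaging were not analysed here.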

Additional observations from a re-analysis of the deposited data

How the results depend on the processing

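With 2 libraries a group, calls near the threshold moved with the settings. Of the 36 tested genes, 3 rose and 5 fell. Without a filter 1 rose. The quasi-likelihood test without a block gave 1 and 3 (1054 calls over all genes, against 1822). With the replicate block it gave 0 higher and 3 lower (Flna, Tagln2 and Zyx) and 785 calls over all genes. Each library left out gave 0 higher and 2 to 5 lower, with 773 to 1932 calls over all genes, and the lone library was then assumed to vary like the others. The other filter, DESeq2 size factors, library size alone and the DESeq2 test kept both counts within 1.5-fold. Zyx and Tagln2 were called in all 11 alternatives with an FDR. All 8 called genes kept their sign, which adds no support, as their groups did not overlap. Actn1, Src and Csrp1 lost the call without a filter, Src by library size, Actn1, Src, Csrp1 and Tpm1 in the quasi-likelihood test, and these and Pxn with the replicate block.

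In the further lists, 10 rose and 7 fell, 5 and 3 with the replicate block, and 6 to 12 and 2 to 6 without single libraries. Of the 17 called, 12 were called in the quasi-likelihood test, 15 without a filter or by library size (Ssh3 and Myh14 lost) and 16 by DESeq2 (Ssh3 lost). With the replicate block 8 were called, and Fosb was among those lost (adjusted p = 0.053).

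Actg1 turned from 0.01 to -0.02 without a filter, -0.03 by library size and -0.05 with the replicate block. Without single libraries the log2 fold change ran from -0.45 to 0.33 for Actg1, -0.01 to 0.29 for Ilk, -0.29 to 0.03 for Parva, -0.06 to 0.69 for Tns1, -0.11 to 0.31 for Tpm4, -0.17 to 0.22 for Mrtfa, -0.23 to 0.25 for Cfl1 and -0.21 to 0.16 for Msn. None of these 8 genes was called, and the cause was not tested.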
